A study of Mus musculus with 6 samples.

Results

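The genes described here are those of the mouse major histocompatibility complex (MHC, named H2 in the mouse) and of the machinery that loads peptides onto its products. They were taken by name: every gene whose symbol starts with H2-, and B2m, Tap1, Tap2, Tapbp, Psmb8, Psmb9, Psmb10, Nlrc5, Ciita and Cd74. That gave 55 of the 54309 genes in the table. All but H2-K2 were placed by symbol. There were 2 classical class I chains, 30 class I-like chains and 8 genes of class I assembly and processing. The 30 include H2-K2, put there after the gene names were seen. The others were 12 class II chains, 2 class II partners (Ciita and the invariant chain Cd74) and H2-Ke6. H2-Ke6 is a gene of the region that encodes no MHC chain. Pseudogenes such as H2-K2, H2-Pa and H2-Pb are counted with the chains of their class.

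Male C57bl/6 mice, 8 to 10 weeks old, provided dorsal root ganglia (DRG), which hold the cell bodies of sensory neurons, from lumbar levels 4 to 6, and RNA was measured in them. The 3 control libraries came from mice given AAV-GFP, an adeno-associated virus carrying green fluorescent protein, and the other 3 from mice given AAV-Leptin-GFP, which carries the hormone leptin as well. They are called control and leptin libraries below. Both sciatic nerves received the virus 4 weeks before a dorsal column axotomy (DCA, a cut of the central branch of these neurons in the spinal cord). The ganglia were taken 24 hours after that cut. Both groups therefore carried a virus and an injury, and no uninjured or virus-free group is compared here. The labels name no promoter for the transgene. They do not say whether a library is 1 animal or a pool, so the spread that p-values measure here may be technical. The ganglia had been dissociated with enzymes and passed through a bovine serum albumin gradient to enrich neurons. In such bulk samples, fewer cells of a type and less RNA per cell cannot be told apart.

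MHC class I molecules sit on nearly all nucleated cells and show fragments of the cell's own proteins to CD8 T cells. The proteasome, in its immune form with the subunits Psmb8, Psmb9 and Psmb10, cuts the fragments; Tap1 and Tap2 pump them into the endoplasmic reticulum; tapasin (Tapbp) helps load them onto a heavy chain paired with beta-2-microglobulin (B2m). Class I-like chains share this fold but vary little between individuals and serve narrower roles. Class II molecules are made mainly by professional antigen-presenting cells such as macrophages, dendritic cells and B cells, load peptides in endosomes with the help of the invariant chain and H2-DM, and show them to CD4 T cells. Interferons raise both classes, acting through Nlrc5 for class I and Ciita for class II. Neurons are known for low class I levels that can rise after injury or inflammation.

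The control regions of these genes are shown first because several of these genes hold the same short motifs. The sequences are the 250 bases before the start site in RefSeq, build GRCm38.p6, written 5′ to 3′ on the gene's own strand. A window was matched by symbol for 38 of the 55 genes. Capitals mark any match, on either strand, to the Y box core ATTGG (bound by NF-Y), the X2 box core TGACG (bound by CREB-family factors), the interferon element GAANNGAAA or the NF-kappaB site (GGG, any 2 bases, then TTCCC). The first set holds the classical chains H2-K1 and H2-D1, the class I-like chains H2-Q4 and H2-Q10, and B2m.

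H2-K1: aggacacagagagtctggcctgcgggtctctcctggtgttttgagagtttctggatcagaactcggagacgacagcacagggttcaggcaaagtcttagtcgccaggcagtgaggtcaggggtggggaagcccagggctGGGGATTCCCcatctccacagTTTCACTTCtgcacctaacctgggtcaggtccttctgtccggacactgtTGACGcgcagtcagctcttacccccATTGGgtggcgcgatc
H2-D1: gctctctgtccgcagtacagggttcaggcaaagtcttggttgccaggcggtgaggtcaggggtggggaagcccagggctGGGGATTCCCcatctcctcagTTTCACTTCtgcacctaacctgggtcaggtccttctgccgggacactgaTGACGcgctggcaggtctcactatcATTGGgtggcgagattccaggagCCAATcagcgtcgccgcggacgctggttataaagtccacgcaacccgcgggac
H2-Q4: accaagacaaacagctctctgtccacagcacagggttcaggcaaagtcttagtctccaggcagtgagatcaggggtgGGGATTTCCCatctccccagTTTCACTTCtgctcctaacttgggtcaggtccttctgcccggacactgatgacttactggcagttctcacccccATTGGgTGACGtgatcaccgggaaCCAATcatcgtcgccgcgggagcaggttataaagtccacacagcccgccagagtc
H2-Q10: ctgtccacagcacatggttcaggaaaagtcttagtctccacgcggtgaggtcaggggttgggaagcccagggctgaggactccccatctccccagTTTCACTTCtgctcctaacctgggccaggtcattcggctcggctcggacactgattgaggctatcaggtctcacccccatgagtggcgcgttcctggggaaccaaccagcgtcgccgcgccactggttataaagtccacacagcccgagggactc
B2m: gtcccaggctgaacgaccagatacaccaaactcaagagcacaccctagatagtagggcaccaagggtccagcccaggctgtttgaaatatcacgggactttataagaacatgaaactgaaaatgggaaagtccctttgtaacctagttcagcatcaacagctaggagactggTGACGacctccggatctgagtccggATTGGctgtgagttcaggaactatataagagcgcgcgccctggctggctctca

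The second set holds the transporter gene Tap1 and the class II chains H2-Aa and H2-Eb1.

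Tap1: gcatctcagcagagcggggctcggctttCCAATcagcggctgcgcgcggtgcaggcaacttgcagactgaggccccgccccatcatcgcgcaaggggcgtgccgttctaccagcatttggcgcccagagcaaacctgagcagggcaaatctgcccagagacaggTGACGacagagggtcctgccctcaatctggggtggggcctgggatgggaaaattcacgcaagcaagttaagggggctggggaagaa
H2-Aa: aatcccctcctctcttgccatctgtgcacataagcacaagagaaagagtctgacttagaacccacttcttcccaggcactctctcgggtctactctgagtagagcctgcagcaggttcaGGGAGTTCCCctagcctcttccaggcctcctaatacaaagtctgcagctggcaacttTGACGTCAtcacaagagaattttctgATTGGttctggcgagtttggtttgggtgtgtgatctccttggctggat
H2-Eb1: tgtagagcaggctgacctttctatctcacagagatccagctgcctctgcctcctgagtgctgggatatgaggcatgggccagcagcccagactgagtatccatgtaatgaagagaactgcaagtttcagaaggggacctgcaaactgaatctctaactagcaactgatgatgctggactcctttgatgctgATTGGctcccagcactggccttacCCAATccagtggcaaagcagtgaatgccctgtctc

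The windows are chr17:34000348-34000597 on the minus strand (H2-K1), chr17:35262844-35263093 (H2-D1), chr17:35379367-35379616 (H2-Q4), chr17:35469839-35470088 (H2-Q10), chr2:122147437-122147686 (B2m), chr17:34187306-34187555 (Tap1) and chr17:34305617-34305866 (H2-Eb1) on the plus strand, and chr17:34287824-34288073 on the minus strand (H2-Aa). H2-K1 and H2-D1 held all 4 motifs, and so did H2-Q4. Counted from the start site of H2-K1, the NF-kappaB match began at -111, the interferon match at -90, the X2 match at -41 and the Y match at -16. H2-Q10, whose product is secreted mainly by liver, held the interferon match alone. In H2-Aa the X2 match lay in a palindrome that reads TGACG on both strands, and H2-Eb1 held only Y matches. Of the 20 genes that were both expressed enough to test and matched to a window, 16 held the Y core, against 34.5% of 27025 promoters of the same length. The X2 core was in 10 of the 20, against 17.9% of promoters. The interferon element was in 7 of the 20, against 6.34%, and the NF-kappaB site in 6 of the 20, against 1.44%. All 7 interferon matches were in class I or class I-like chains (H2-D1, H2-K1, H2-M3, H2-Q10, H2-Q4, H2-Q6 and H2-Q7), and none was in the 4 class II chains with a window. Only the spelling GAANNGAAA was searched. Similar stretches with a longer spacing, such as gaaactgaaa in B2m and tttcactttc in H2-T22, are neither marked nor counted. A gene without a match may therefore still hold an element of this kind. The Tap1 and Psmb9 windows share 225 bases, since these genes are read in opposite directions from start sites 226 bases apart. A match of letters is a description and not a bound site, and close paralogs share promoter sequence by descent.

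Levels are in TPM, a transcript level scaled for transcript length and for the library total, so genes can be compared. Of the 55 genes, 47 were above 0 in at least 1 library and 27 reached the minimum for testing, a mean over the 6 libraries of 1 TPM: both classical class I chains, 10 class I-like chains, all 8 assembly genes, 5 class II chains, Cd74 and H2-Ke6. The 8 genes listed at 0 in every library were H2-M10.1, H2-M10.3, H2-M10.5, H2-M10.6, H2-Q3, H2-Ea, H2-Pa and H2-Pb. H2-Ea is among them, and mice of the C57BL/6 background are known not to make this chain. The other 20 lay above 0 and under the minimum. As a check of the labels, the Lep gene itself was listed at 0 in all 3 control libraries and reached 0.751, 0.547 and 3.56 TPM in the leptin libraries. The summed sensory neuron markers lay between 14498 and 15405 TPM in all 6 libraries, and the summed satellite glia markers between 6890 and 8818 TPM.

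None of the 27 genes passed the test between the groups. The test was limma on log2(TPM + 1), with Benjamini-Hochberg adjustment over 15108 genes and a threshold of 0.05. Over all genes it called 1.54% higher and 0.0662% lower with AAV-Leptin-GFP, and of the MHC and processing genes it called 0 in either direction. At an unadjusted p under 0.05, 1 gene was higher (H2-K2) and 2 were lower (H2-M3 and Psmb9), against 11.3% of all genes higher and 8.19% lower. In the limma fit to coding transcripts only, 24 of the genes were tested. At the same unadjusted p, 1 was higher and 6 were lower there, against 8.43% and 7.09% of all genes, and none was called after adjustment. The lower count was 1 to 4 in the other alternative fits that kept all 6 libraries. The groups did not overlap for 1 gene that was higher (H2-K2) and 1 that was lower (H2-M3), against 13.3% and 11.9% of all genes. With 3 libraries a group, an exact permutation test of a single gene cannot give a p below 0.1. The fold change was below 0 for 22 of the 27 genes, against 50.1% of all genes tested, with a median of -0.22 on the log2 scale against a median of 0.00 over all genes. How this count moves with single libraries is given below.

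**Figure D1:**
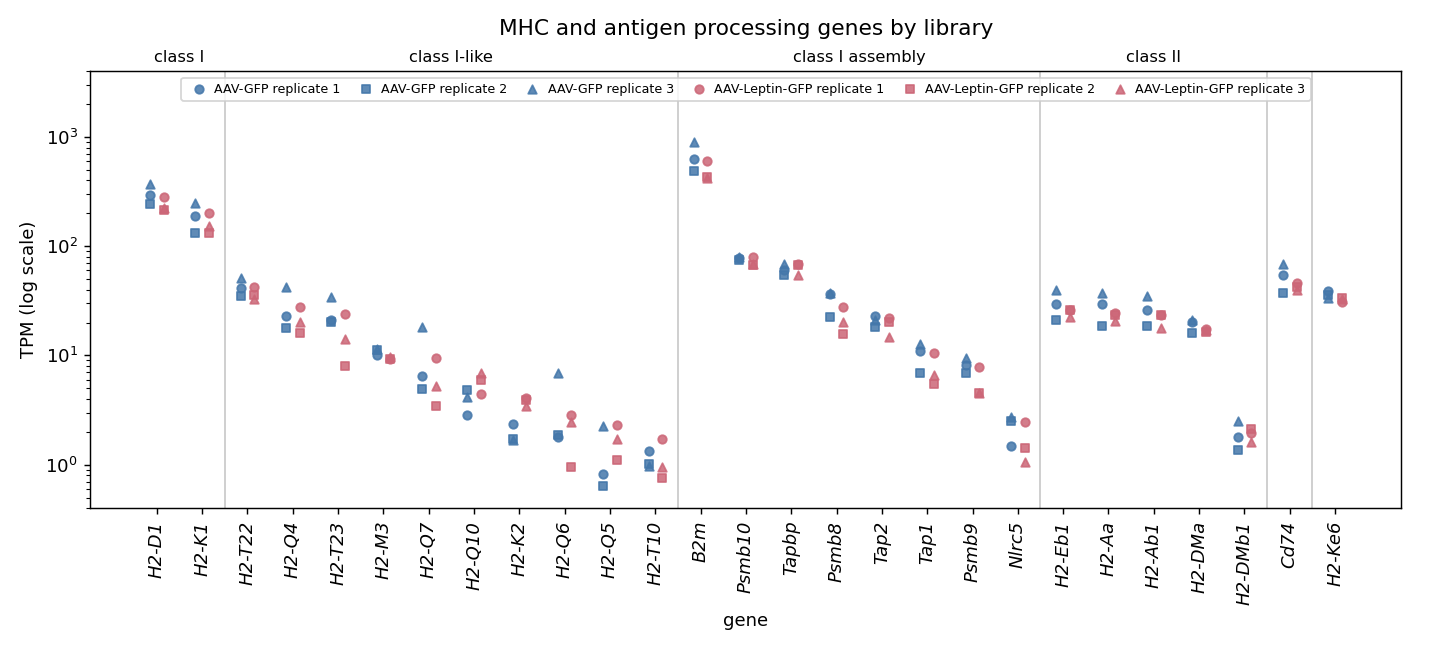
TPM on a log axis of each of the 27 tested genes in each of the 6 libraries, with AAV-GFP in blue and AAV-Leptin-GFP in red and a marker shape for each replicate. AAV-GFP replicate 3 (blue triangles) is the highest library for 20 of the 27 genes, and B2m, H2-D1 and H2-K1 lie far above the others.

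The classical class I chains, which carry the peptides seen by CD8 T cells, were the most abundant of the heavy chains. H2-D1 (chromosome 17, 35262730 to 35267499 on GRCm38, plus strand) was at 297, 242 and 367 TPM in AAV-GFP replicates 1, 2 and 3 and at 283, 215 and 223 TPM in the AAV-Leptin-GFP replicates. Its groups overlapped, and AAV-GFP replicate 3 was the highest. The log2 fold change was -0.32 with a standard error of 0.16 (95% interval -0.70 to 0.06, limma adjusted p = 0.333). H2-K1 was at 190, 133 and 251 TPM in the control libraries and at 200.5, 131 and 153 TPM in the leptin libraries. The order was the same as for H2-D1 at both ends, with AAV-GFP replicate 3 highest and AAV-Leptin-GFP replicate 2 lowest. Its log2 fold change was -0.22 with a standard error of 0.24 (limma adjusted p = 0.665). Summed, the classical chains gave 493 ± 122 TPM in the control libraries and 402 ± 72.5 TPM in the leptin libraries (SD, n = 3 each).

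B2m, the light chain of every class I molecule, was the most abundant of the 55 genes. It was at 623, 484 and 891 TPM in the control libraries and at 599, 431 and 425 TPM in the leptin libraries. The highest and the lowest AAV-GFP libraries differed more than the group means did, which were 666 ± 207 and 485 ± 98.5 TPM (SD, n = 3 each). The log2 fold change was -0.43 with a standard error of 0.23 (limma adjusted p = 0.348).

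Among the processing genes, the immunoproteasome subunits differed in level and in spread. By gene total Psmb10 was the most abundant, at 78.2, 74.9 and 79.8 TPM in the control libraries and at 79.4, 67.9 and 68.5 TPM in the leptin libraries. Transcripts that keep an intron held 61.2, 69.4 and 64.4% of this total in the control libraries and 52.9, 67.0 and 67.9% in the leptin libraries. In the control libraries its coding transcript was at 24.9, 22.9 and 25.2 TPM, and the leading coding transcript of Psmb8 at 22.7, 12.3 and 24.3 TPM. Psmb8 was at 36.8, 22.3 and 37.1 TPM against 28.0, 15.8 and 20.2 TPM. Psmb9 was at 8.14, 6.89 and 9.55 TPM against 7.75, 4.57 and 4.50 TPM. For Psmb8 and Psmb9 AAV-Leptin-GFP replicate 1 lay among the AAV-GFP libraries, and replicates 2 and 3 lay below all of them. Their log2 fold changes were -0.57 with a standard error of 0.25 (Psmb8, limma adjusted p = 0.266) and -0.50 with a standard error of 0.20 (Psmb9, limma adjusted p = 0.236), and that of Psmb10 was -0.11. The transporter chain Tap1, which shares its start region with Psmb9, was at 10.9, 6.93 and 12.7 TPM against 10.47, 5.51 and 6.65 TPM. Its partner Tap2 was at 23.01, 18.3 and 21.1 TPM against 22.04, 20.02 and 14.8 TPM. Transcripts that keep an intron held 66.4, 60.2 and 74.05% of the Tap2 total in the control libraries and 65.85, 68.1 and 73.1% in the leptin libraries. The totals of Tap1 and Tap2 overlapped between the groups, with log2 fold changes of -0.39 (Tap1) and -0.14 (Tap2). Tapasin (Tapbp) was at 60.8, 54.9 and 68.5 TPM against 68.9, 66.7 and 54.4 TPM, a log2 fold change of 0.04. The class I activator Nlrc5 was at 1.47, 2.53 and 2.72 TPM against 2.47, 1.41 and 1.05 TPM, a log2 fold change of -0.31. Tapbp and Nlrc5 overlapped between the groups.

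The class I-like chains summed to 131 ± 39.6 TPM in the control libraries and 106 ± 22.1 TPM in the leptin libraries (SD, n = 3 each), below the classical sum in every library. H2-T22, a ligand of some gamma-delta T cells, was the most abundant at 41.7, 35.1 and 50.8 TPM in the control libraries and at 42.1, 35.8 and 32.8 TPM in the leptin libraries. Its near twin H2-T10 was at 1.33, 1.01 and 0.98 TPM against 1.73, 0.75 and 0.94 TPM. H2-T23, the chain of Qa-1 that presents class I leader peptides to natural killer cells, had the lowest fold change of the 27 genes. It was at 20.9, 20.3 and 34.1 TPM against 24.2, 7.98 and 14.1 TPM. AAV-Leptin-GFP replicates 2 and 3 lay below all AAV-GFP libraries and replicate 1 did not, and the log2 fold change was -0.75 with a standard error of 0.37 (95% interval -1.61 to 0.11, limma adjusted p = 0.313).

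Among the Q-region chains, AAV-GFP replicate 3 stood above the other 5 libraries for H2-Q4, H2-Q6 and H2-Q7. H2-Q4 was at 23.2, 17.7 and 42.1 TPM in the control libraries and at 27.6, 15.9 and 20.3 TPM in the leptin libraries. H2-Q7, a chain of the Qa-2 antigen, was at 6.42, 4.94 and 18.3 TPM against 9.41, 3.43 and 5.26 TPM. H2-Q6, another Qa-2 chain, was at 1.77, 1.87 and 6.89 TPM against 2.87, 0.94 and 2.48 TPM. Their log2 fold changes were -0.31 (H2-Q4), -0.52 (H2-Q7) and -0.42 (H2-Q6), with standard errors of 0.32, 0.48 and 0.45. H2-Q5, annotated as a polymorphic pseudogene, was at 0.82, 0.63 and 2.27 TPM against 2.32, 1.11 and 1.73 TPM, a log2 fold change of 0.32. H2-Q10 was at 2.84, 4.82 and 4.13 TPM against 4.42, 6.00 and 6.95 TPM, a log2 fold change of 0.46 (limma adjusted p = 0.264). H2-Q10 was thus lowest in AAV-GFP replicate 1 and highest in AAV-Leptin-GFP replicate 3, and its groups overlapped through AAV-Leptin-GFP replicate 1.

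H2-M3, which presents N-formylated peptides, varied least among the class I-like chains. It was at 10.11, 11.1 and 11.4 TPM in the control libraries and at 9.29, 9.26 and 9.63 TPM in the leptin libraries. All AAV-Leptin-GFP libraries lay below all AAV-GFP libraries. The log2 fold change was -0.19 with a standard error of 0.08 (unadjusted p = 0.0451, limma adjusted p = 0.245). H2-K2 (chromosome 17, 33974659 to 33978827 on GRCm38, minus strand), which the annotation lists as a transcribed unprocessed pseudogene, went the other way. It was at 2.37, 1.73 and 1.68 TPM against 4.09, 3.90 and 3.46 TPM. All AAV-Leptin-GFP libraries lay above all AAV-GFP libraries, and the log2 fold change was 0.73 with a standard error of 0.14 (95% interval 0.39 to 1.07, unadjusted p = 0.00138, limma adjusted p = 0.0616). Without AAV-GFP replicate 1 the adjusted p was 0.0406, the only alternative of 12 in which H2-K2 passed the threshold.

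Class II chains were present at lower levels than classical class I, with a summed 107 ± 30.4 TPM in AAV-GFP and 89.6 ± 7.28 TPM in AAV-Leptin-GFP (SD, n = 3 each). H2-Aa and H2-Ab1 are the alpha and beta chains of I-A, the class II molecule of this strain. H2-Aa was at 29.5, 18.4 and 37.1 TPM in the control libraries and at 24.7, 23.4 and 20.9 TPM in the leptin libraries. H2-Ab1 was at 26.0, 18.4 and 35.2 TPM against 23.6, 23.7 and 17.7 TPM. H2-Eb1, the beta chain of I-E, was at 29.7, 21.1 and 39.9 TPM against 26.2, 26.0 and 22.7 TPM, while its alpha chain H2-Ea was listed at 0. Only part of the H2-Eb1 total was coding. Its coding transcript was at 5.36, 3.59 and 5.32 TPM in the control libraries and at 4.16, 2.53 and 2.58 TPM in the leptin libraries. In the gene totals of all 3 chains the AAV-GFP libraries held the highest value, in replicate 3. The control range of these totals enclosed the leptin range except for the lowest leptin library of H2-Ab1. The log2 fold changes of the totals were -0.24 (H2-Aa), -0.25 (H2-Ab1) and -0.22 (H2-Eb1), with limma adjusted p = 0.605, 0.595 and 0.594. In the fit to coding transcripts only, the log2 fold change was -0.45 for H2-Eb1 (limma adjusted p = 0.282) and -0.24 for H2-Aa (limma adjusted p = 0.619).

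Cd74, the invariant chain that blocks the class II groove until peptide is loaded, was also highest in AAV-GFP replicate 3 and was lowest in AAV-GFP replicate 2. It was at 54.7, 37.1 and 68.3 TPM in the control libraries and at 45.8, 41.9 and 39.6 TPM in the leptin libraries, a log2 fold change of -0.28 with a standard error of 0.20 (limma adjusted p = 0.482). H2-DMa and H2-DMb1 encode the chains of the peptide exchanger H2-DM. H2-DMa was at 20.3, 16.2 and 20.99 TPM against 17.5, 16.4 and 17.0 TPM, a log2 fold change of -0.16. H2-DMb1 was at 1.80, 1.37 and 2.51 TPM against 1.96, 2.12 and 1.597 TPM, a log2 fold change of 0.01. Its near copy H2-DMb2 averaged 0.50 TPM, and the class II activator Ciita 0.41 TPM.

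Among the other genes under the minimum, H2-Ob, a chain of the H2-DM inhibitor H2-O, was at 0.086, 0.153 and 0.102 TPM in the control libraries and at 0.264, 0.387 and 0.543 TPM in the leptin libraries. Its groups did not overlap. In the fit with no minimum its log2 fold change was 0.32 (unadjusted p = 0.00892, limma adjusted p = 0.194). Of all genes in that fit, 8.03% were higher at an unadjusted p under 0.05. H2-Q1, with a mean of 0.056 TPM, had groups apart in the other direction. The class I-like genes H2-M11 (mean 0.87 TPM), H2-T-ps (0.52), H2-T24 (0.31), H2-M5 (0.22), H2-M10.2 (0.20), H2-M6-ps (0.20) and H2-Q2 (0.19) completed those with a mean TPM of at least 0.1. None of these 7 passed the threshold in that fit either. H2-Ke6, a steroid dehydrogenase gene that lies in the region, was at 38.7, 35.5 and 33.4 TPM in the control libraries and at 30.7, 33.7 and 32.6 TPM in the leptin libraries. Its log2 fold change was -0.14 (limma adjusted p = 0.321).

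**Figure D2:**
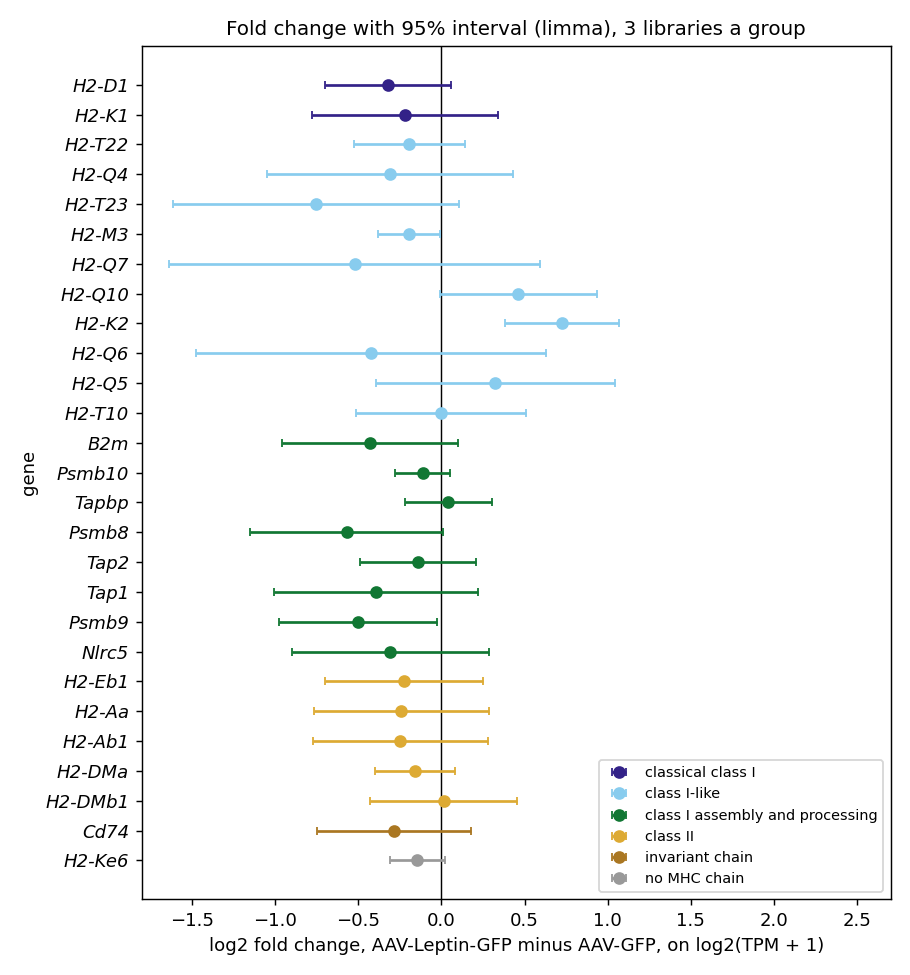
Log2 fold change of the 27 tested genes, AAV-Leptin-GFP minus AAV-GFP on the log2(TPM + 1) scale, with 95% intervals from limma (3 libraries a group), coloured by class. The intervals of H2-K2 (0.39 to 1.07), H2-M3 and Psmb9 leave out 0, and that of H2-T23 runs from -1.61 to 0.11.

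Set side by side, the classes did not separate by fold change. The median log2 fold change was -0.27 for the classical class I chains, -0.19 for the 10 class I-like chains, -0.35 for the 8 assembly genes and -0.22 for the 5 class II chains. The difference between classes was not tested. The class I-like chains had the widest range, from -0.75 (H2-T23) to 0.73 (H2-K2), whereas the class II chains lay between -0.25 and 0.01.

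The spread between libraries of 1 group was wide for these genes. The median log2 range within the AAV-GFP group was 0.602 for the 27 genes and 0.188 for all genes tested, and within the AAV-Leptin-GFP group it was 0.492 and 0.212. AAV-GFP replicate 3 was the highest library for 20 of the 27 genes, against 17.2% of all genes. It was the highest for both classical class I chains, 6 of 10 class I-like chains, 6 of 8 assembly genes and all 5 class II chains with Cd74. As a mean deviation from each gene's own mean on the log2 scale, AAV-GFP replicate 3 stood at 0.504 for classical class I, 0.442 for class I-like, 0.362 for assembly genes and 0.450 for class II with Cd74, and at -0.033 for all genes.

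The low end is given by class, without a test of the difference between classes. AAV-Leptin-GFP replicate 2 was the lowest library for both classical chains and 6 of the 10 class I-like chains. AAV-Leptin-GFP replicate 3 was the lowest for 5 of the 8 assembly genes and AAV-Leptin-GFP replicate 2 for the other 3. AAV-GFP replicate 2 was the lowest for 5 of the 6 genes of class II with Cd74, with a mean deviation of -0.309, whereas the AAV-Leptin-GFP libraries deviated by -0.013, -0.049 and -0.223. Over all genes tested, AAV-Leptin-GFP replicate 2 was the lowest library for 13.3%, AAV-Leptin-GFP replicate 3 for 26.1% and AAV-GFP replicate 2 for 21.7%. Without AAV-GFP replicate 3, the median log2 fold change was -0.08 for classical class I, 0.01 for class I-like and -0.02 for class II chains, and 20 of the 27 genes were below 0. Without AAV-GFP replicate 2 the medians were -0.46, -0.25 and -0.45, and 10 genes were lower at an unadjusted p under 0.05, against 5.56% of all genes in that fit. Without AAV-Leptin-GFP replicate 1 this count was 7, against 8.51% of all genes. It was 0 when AAV-Leptin-GFP replicate 2 or 3 was left out, against 6.68% and 5.74% of all genes, and 1 when AAV-GFP replicate 1 or 3 was left out, against 6.43% and 6.28%. None of these 6 fits called any of the genes lower after adjustment.

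**Figure D3:**
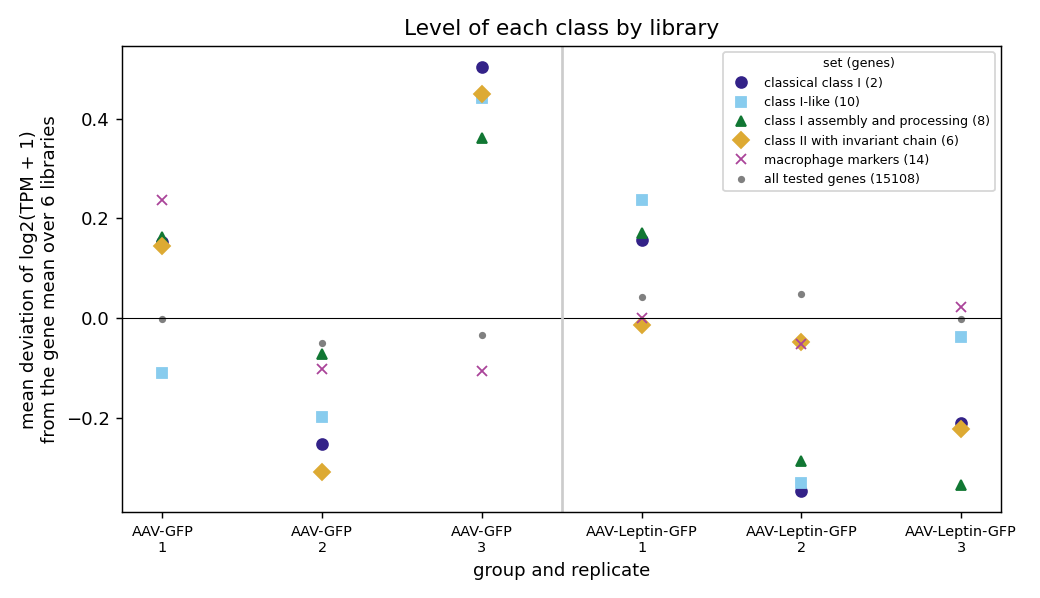
Mean deviation of log2(TPM + 1) from each gene's mean over the 6 libraries, by library, for 4 classes of MHC and processing genes, 14 macrophage markers and all 15108 tested genes. All 4 classes are highest in AAV-GFP replicate 3 (0.362 to 0.504), where the macrophage markers are at -0.106.

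Markers of the cell types that could carry class II were read in the same libraries. The 14 macrophage markers were all above the minimum, and none was called. Their summed level was 73.6, 50.4 and 51.1 TPM in the control libraries and at 58.1, 54.2 and 56.8 TPM in the leptin libraries. The sum was highest in AAV-GFP replicate 1, and its members were divided: 7 of the 14 markers were highest in that library, among them Tyrobp and the 3 C1q genes, which are the largest terms of the sum. Another 3 (Aif1, Csf1r and Cx3cr1) were highest in AAV-GFP replicate 3, as most of the MHC genes were, and 4 in an AAV-Leptin-GFP library. The summed B cell markers lay at 1.61 to 2.13 TPM in the control libraries and at 1.28 to 4.605 TPM in the leptin libraries, and T or NK cell markers at 0.73 to 2.42 and 1.12 to 1.55 TPM. Dendritic cell markers summed to 24.7 to 25.9 and 24.8 to 26.7 TPM, most of it Flt3. Of these 7 markers only 2, Flt3 and Zbtb46, reached the minimum for testing, so the sum says little of the others. Endothelial markers summed to 10.097 to 13.7 and 8.46 to 17.1 TPM, and fibroblast markers to 57.2 to 69.6 and 54.0 to 80.6 TPM. The summed Schwann cell markers were at 951 to 983 TPM in the control libraries and 827 to 908 TPM in the leptin libraries, and the satellite glia sum was at 7718 to 8818 and 6890 to 7558 TPM. These glial sums and the neuron sum were lower in every AAV-Leptin-GFP library than in every AAV-GFP library, but their members were mixed. Apoe makes up most of the satellite glia sum, and Glul of that list had a log2 fold change of 0.14 (unadjusted p = 0.0410). Of the neuron markers, Isl1 was higher in every AAV-Leptin-GFP library (log2 fold change 0.14) and Nefh had a log2 fold change of 0.09. None of these markers was called. The part of any cell type in the MHC values was not tested.

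Other genes of the same pathways were read from lists of known function. Of 18 further class I pathway genes, all tested, 0 were called, and the median log2 fold change was -0.07. At an unadjusted p under 0.05, 0 were higher and 4 of the 18 were lower, against 11.3% and 8.19% of all genes: the constitutive proteasome subunits Psmb5 and Psmb6, the proteasome activator chain Psme1 and the tapasin relative Tapbpl. Psmb5, whose place Psmb8 takes in the immunoproteasome, was at 353, 352 and 344 TPM in the control libraries and at 309, 297 and 321 TPM in the leptin libraries, a log2 fold change of -0.18 (limma adjusted p = 0.0771). Tapbpl was at 13.7, 13.9 and 12.9 TPM against 11.5, 9.95 and 10.0 TPM, a log2 fold change of -0.34 (limma adjusted p = 0.0927). Both had groups that did not overlap, with every AAV-Leptin-GFP library lower. The same held for Psmb6, Psmb7 and Psme2, against 11.9% of all genes, and the groups overlapped for the rest of the list. Of the further class II pathway genes, 15 of 18 in the table were tested, 0 were called and the median was 0.02. At an unadjusted p under 0.05, 4 of the 15 were lower (the endosomal proteases Ctsb, Ctsd, Ctsl and Lgmn) and 1 was higher (the class II regulator subunit Rfxank), against 8.19% and 11.3% of all genes. Of 10 class I-like genes named outside the H2 series, 6 were tested and 0 were called. At an unadjusted p under 0.05, 2 were higher (Cd1d1 and Azgp1) and 1 was lower (Fcgrt, the neonatal Fc receptor chain), against 11.3% and 8.19% of all genes. Cd1d1, which presents lipids to natural killer T cells, was at 7.31, 6.69 and 8.54 TPM against 10.0, 9.89 and 9.42 TPM, higher in every AAV-Leptin-GFP library (log2 fold change 0.35, limma adjusted p = 0.128). The log2 fold change was 0.48 for Azgp1 (limma adjusted p = 0.230), whose groups did not overlap, and -0.21 for Fcgrt (limma adjusted p = 0.238), whose groups did.

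Of 16 known inducers of MHC genes, 1 was called higher and 0 lower, against 1.54% and 0.0662% of all genes. Irf1, an interferon-induced factor that binds the promoters of class I genes, was at 15.8, 10.8 and 15.0 TPM in the control libraries and at 33.1, 41.0 and 29.7 TPM in the leptin libraries. All AAV-Leptin-GFP libraries lay above all AAV-GFP libraries. The log2 fold change was 1.27 with a standard error of 0.16 (limma adjusted p = 0.0238). This adjusted p was above 0.05 in 8 of the 14 alternative fits, up to 0.146 without AAV-Leptin-GFP replicate 2, with a log2 fold change between 1.07 and 1.37 in all 14. The other 15 inducers were not called and the median of the list was 0.04. Of these, the kinase Tyk2 had a log2 fold change of 0.46 with groups that did not overlap (unadjusted p = 0.00511, limma adjusted p = 0.0958), and the interferon receptor chain Ifnar2 one of -0.25 with groups that did (unadjusted p = 0.0234, limma adjusted p = 0.182). Irf7 was at 7.09, 4.67 and 9.80 TPM against 11.5, 5.06 and 3.89 TPM (log2 fold change -0.14), and its groups overlapped. Irf1 was called higher, and neither the class I chains nor Nlrc5 was. A link between Irf1 and these genes was not tested.

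Within genes, the mix of transcripts differed between the groups. A retained-intron transcript keeps an intron that is spliced out of the coding message. Such transcripts held 2.50, 2.10 and 2.27% of all TPM in the AAV-GFP libraries and 3.60, 3.75 and 3.24% in the AAV-Leptin-GFP libraries. Of the 22 MHC and processing genes with such a share, 9 had a larger share in every AAV-Leptin-GFP library than in any AAV-GFP library, against 42.9% of 7342 genes, and 1 (Tapbp) a smaller one, against 0.804%. The mean share was larger with AAV-Leptin-GFP in 18 of the 22, against 86% of genes, so the direction was common to the whole table. Tap1 had retained-intron shares of 5.47, 2.704 and 7.41% in the control libraries and 18.9, 16.6 and 16.3% in the leptin libraries. H2-K1 had shares of 24.1, 14.3 and 21.4% against 31.2, 27.5 and 30.5%. H2-T23 had shares of 2.699, 0.84 and 1.22% against 9.41, 7.23 and 6.31%. The groups were apart in these 3 genes and also in Cd74, H2-Aa, H2-D1, H2-Eb1, H2-Q4 and H2-T22. The median difference in means was 3.01 percentage points over the 22 genes and 1.90 points over all genes with a share.

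**Figure D4:**
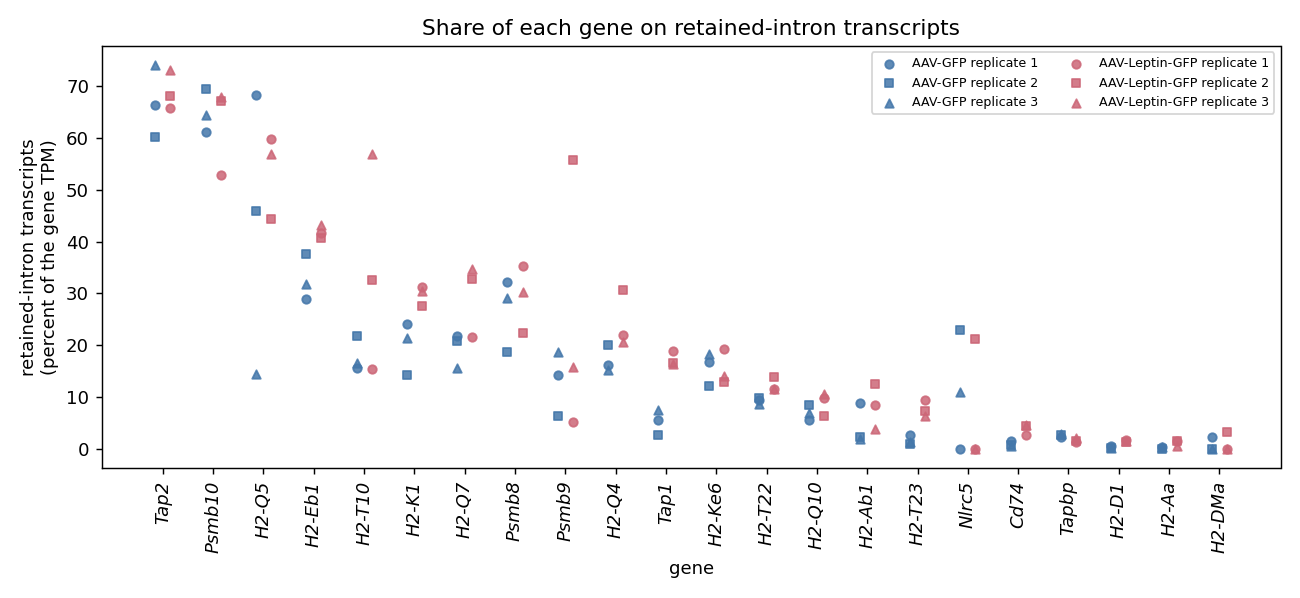
Percent of each gene's TPM on retained-intron transcripts, for 22 MHC and processing genes in each library, with AAV-GFP in blue and AAV-Leptin-GFP in red. In Tap1 the AAV-Leptin-GFP libraries sit at 16.3 to 18.9% and the AAV-GFP libraries at 2.704 to 7.41%.

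Single transcripts were tested by the same fit. Of 61 transcripts of these genes averaging 1 TPM or more, none was called, against 0.131% of 33615 transcripts. Among the 18 retained-intron transcripts, 3 were higher in every AAV-Leptin-GFP library (1 of H2-D1 and 2 of H2-K1), against 51.3% of such transcripts in the table. Among the 38 protein-coding transcripts, 0 were higher with the groups apart, against 7.89%, and 3 were lower with the groups apart (of H2-Ke6, H2-M3 and Psmb10), against 12.3%. The median log2 fold change was -0.30 for these 38 coding transcripts and -0.03 for all coding transcripts, and 0.11 for the 18 retained-intron transcripts and 0.88 for all of that kind. The coding transcript of Psmb10 was at 24.9, 22.9 and 25.2 TPM in the control libraries and at 19.7, 17.8 and 19.0 TPM in the leptin libraries, below every control library. Its log2 fold change was -0.35 with a standard error of 0.07 (limma adjusted p = 0.0748), whereas the gene total changed by -0.11. The leading coding transcript of H2-D1 was at 226, 187 and 291 TPM against 204, 154 and 162 TPM, a log2 fold change of -0.43 (limma adjusted p = 0.283).

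How far reads can be told apart between these genes varied. The share of 31-base stretches of a gene's leading transcript that also occurs in another gene was 0% for B2m, H2-Aa, H2-DMa, Nlrc5, Psmb8, Psmb9 and Psmb10. It was under 5% for H2-Ab1, H2-Eb1, Cd74, Tap1, Tap2, Tapbp and H2-M3. It was 18.6% for H2-K2, 23.3% for H2-K1 and 27.5% for H2-D1. It reached 48.4% for H2-T23, 50.3% for H2-Q6, 62.8% for H2-Q5 and 63.3% for H2-T22, most of the last shared with H2-T10, and 88.3% for H2-Ke6, shared with Gm20427. Values of these paralogs are therefore uncertain singly. Summed over H2-Q6 and H2-Q7, the levels were 8.20, 6.82 and 25.2 TPM in the control libraries and at 12.3, 4.38 and 7.73 TPM in the leptin libraries, so AAV-GFP replicate 3 stood above the rest in the sum as well.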

How the data were processed

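RNA from 3 AAV-GFP and 3 AAV-Leptin-GFP libraries was sequenced from TruSeq Stranded mRNA libraries, per the labels' protocols. The authors deposited TPM per transcript for each library; FastQC 0.11.9, Trim Galore 0.6.6, Salmon 1.6.0, DESeq2 1.34.0 and the builds GRCm38 and mm10 are named in the submitters' processing notes. TPM sum to 1000000 in each library, so read depth is unknown, no counting interval can be given, and a rise of some genes lowers others. TPM was summed by gene identifier. The test used limma 3.58.1 on log2(TPM + 1) for genes averaging 1 TPM or more (R 4.3.3, eBayes with a mean-variance trend, two-sided, no covariate), with p-values adjusted by Benjamini-Hochberg over 15108 genes. A fold change on this scale understates that of low genes. On simulated data for this comparison with 15108 genes, 83 of 100 genes changed by a log2 of 1 and 98 of 100 changed by a log2 of 2 were called. The changed genes were drawn at random from all tested genes with a mean log2(TPM + 1) above 1. The MHC and processing genes spread more within a group (median log2 range 0.602 against 0.188 for all genes in AAV-GFP). These rates may therefore not hold for them, and their own rate was not tested. Coordinates and transcript classes come from GENCODE M21, which holds 97.4% of the 140789 transcripts in the table and all 224 of these genes. Promoters come from RefSeq; for H2-K1 the first of its windows was used. Every gene above the minimum was named, and those under it with a mean of at least 0.1 TPM. H2-K2 was put with the class I-like chains after the gene names were seen. The genes and lists were chosen with earlier results of these data known. Alternatives were other pseudocounts, minimums and scalings, coding transcripts only, no trend, a replicate block and each library left out. Transcript tests and retained-intron shares were added after seeing the data.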

Additional observations from a re-analysis of the deposited data

How the results depend on the processing

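Under the 14 alternatives, no gene of the family was called lower, and 1 was called higher in 1 of them: H2-K2 without AAV-GFP replicate 1, so leaving out each library in turn gave 0 to 1 genes higher. H2-K2 had an unadjusted p under 0.05 in all 12 alternatives that tested it, with an adjusted p of 0.0406 to 0.206. Fold changes changed sign for H2-DMb1 and H2-T10 in 4 alternatives each, Tapbp in 2, and H2-Q4, H2-Q6, Nlrc5 and Tap2 in 1 each. Over all genes, 233 were called higher and 10 lower. With no minimum level these counts were 4 and 0, with coding transcripts only 88 and 3, without the trend 35 and 0, and with a minimum of 5 TPM 27 were lower. Leaving out each library in turn gave 3 to 409 higher (3 without AAV-GFP replicate 2, 409 when AAV-GFP replicate 1 was left out) and 0 to 11 lower (0 when any AAV-Leptin-GFP library was left out); fewer samples enter these fits, and otherwise the cause was not tested. Same-numbered libraries of the groups did not deviate together (correlations across genes of 0.034, -0.070 and -0.024). Libraries with different numbers gave correlations of -0.082 to 0.112. This cannot show whether the samples were paired, and the labels do not say. With the replicate number as a block, 74 genes were called higher and 0 lower, and none of the MHC and processing genes. Quantile normalization moved the median of all genes to -0.04. The unknown read depth limits what can be said of genes near 1 TPM, such as H2-T10, H2-Q5 and Nlrc5.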
